A study of Mus musculus with 4 samples.

Results

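The genes described here encode proteins that are found in amyloid deposits or that bind misfolded proteins outside cells. They are 10 genes chosen by symbol for that role, of 50593 genes in the table: Clu, Apoe, Apod, Vtn, Hspg2, App, Apcs, Saa3, Gsn and Lgals3. The study sequenced RNA of whole sciatic nerve in 2 groups of 2 mice each, HSF V30M and HSF WT, all of strain 129S1/SvImJ and 6 months old. HSF V30M mice carried a transgene for human TTR V30M, a variant of transthyretin that deposits in nerve, on a background without endogenous Ttr. The paper describes the TTR deposits of this model as non-fibrillar, and the data used here hold no measure of deposits. HSF WT mice, the controls, kept endogenous Ttr and carried no transgene, and both groups were heterozygous for a deletion of Hsf1, which encodes heat shock factor 1. The promoter that drives the transgene is not given in the sources used here. The comparison asked which transcripts differed between the nerve of the amyloidosis model and that of its control.

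Amyloid deposits hold more than the fibril protein. Whatever the precursor, they gather serum amyloid P component, apolipoprotein E, clusterin, vitronectin and the heparan sulfate proteoglycan perlecan. Clusterin is an extracellular chaperone that binds partly unfolded proteins and keeps them soluble, and apolipoprotein E binds amyloid as well as lipid. Gelsolin, serum amyloid A and the amyloid precursor protein have fragments that form fibrils themselves. Peripheral nerve contains Schwann cells, fibroblasts, macrophages, endothelium and fat, and several of these cell types make apolipoproteins.

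The values are FPKM, a fragment number corrected for transcript length and library depth, with 1 value per gene and group as the authors made it over the libraries of that group. No value per mouse was given in the table, so the spread between mice could not be computed, and no difference below was tested here. Ratios were taken as log2 of HSF V30M over HSF WT after adding 1 to each FPKM, a scale that understates the change of low genes. A gene was counted as past the fold when this ratio was beyond 1.5-fold in either direction and its mean FPKM was at least 1. The counting interval beside a ratio covers the number of sequenced fragments alone, and differences between mice come on top of it. In whole nerve, fewer cells of a type and less RNA per cell cannot be told apart.

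The tissue was checked first. All 9 genes of the myelinating Schwann cell list were above the minimum, with a summed FPKM of 12736 in HSF V30M nerve against 11120 in HSF WT nerve. Ttr had 6.10 in HSF V30M, about 129 to 153 fragments, while the control value is listed as 0. An endogenous null allele alone would give the opposite order, but HSF V30M mice also carry the human transgene. The table does not tell human from mouse TTR reads, and whether transgene reads make up the Ttr value was not tested. Hsf1 had 7.94 in HSF V30M nerve against 15 in HSF WT nerve, although both groups carry 1 deleted copy. The group labels are used as given.

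For the member that differed most, Apoe, and for Saa3, which was near the limit of detection, the region around the start of transcription is shown from RefSeq on GRCm38.p6. Each window runs 5′ to 3′ on the strand of the gene, from 250 bases before the start to 50 bases after it. Capitals mark TATA boxes (TATAAA), heat shock elements (TTCNNGAA or GAANNTTC) and C/EBP motifs (TTGCNNAA), read on both strands, and letters shared by overlapping matches are marked once. The first Apoe window lies on the minus strand at chr7:19699139-19699438, and the second, at chr7:19698572-19698871, belongs to a downstream start. The Saa3 window lies on the minus strand at chr7:46715627-46715926.
Apoe, first start: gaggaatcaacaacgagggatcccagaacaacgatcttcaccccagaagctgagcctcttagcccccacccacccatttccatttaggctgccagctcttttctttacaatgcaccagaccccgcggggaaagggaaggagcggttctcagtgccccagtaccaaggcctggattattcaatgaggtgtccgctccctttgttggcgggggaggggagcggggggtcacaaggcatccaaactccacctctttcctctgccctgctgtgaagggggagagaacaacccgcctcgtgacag
Apoe, second start: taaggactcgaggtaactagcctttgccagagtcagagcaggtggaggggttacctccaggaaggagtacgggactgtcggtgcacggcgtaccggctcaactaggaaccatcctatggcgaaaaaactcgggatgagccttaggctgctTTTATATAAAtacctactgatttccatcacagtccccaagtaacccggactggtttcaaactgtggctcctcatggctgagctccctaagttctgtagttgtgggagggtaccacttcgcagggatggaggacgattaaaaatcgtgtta
Saa3: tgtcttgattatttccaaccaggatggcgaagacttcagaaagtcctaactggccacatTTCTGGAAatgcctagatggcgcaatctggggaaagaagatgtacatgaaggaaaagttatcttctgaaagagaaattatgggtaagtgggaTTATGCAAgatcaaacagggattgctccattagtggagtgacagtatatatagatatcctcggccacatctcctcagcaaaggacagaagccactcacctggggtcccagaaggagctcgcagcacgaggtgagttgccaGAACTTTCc

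The first Apoe window held none of these motifs, and no match to AP-1 (TGANTCA) or to the NF-kB motif. The second held 2 overlapping TATA matches, TTTATA beginning at base -100 and TATAAA at base -96 from the start. Saa3 held 2 heat shock matches, TTCTGGAA beginning at base -191 and GAACTTTC at base 42, and 1 C/EBP match, TTATGCAA at base -99. Of 32851 such windows, 15.1% held a heat shock match, 10.8% a C/EBP match, 7.81% an AP-1 match, 0.155% an NF-kB match and 13.6% a TATA match. RefSeq windows were matched for 9 of the 10 genes, 13 windows in all, and the only other match was in Vtn, with 2 overlapping TATA matches beginning at bases -137 and -135. A match describes the letters and is not shown to be a binding site.

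Among the members, Apoe transcript was about 2-fold lower in HSF V30M nerve, and none of the 7 others that reached a mean FPKM of 1 differed by as much as 1.5-fold. Clu, App, Hspg2, Vtn and Apod were slightly lower and Gsn and Lgals3 slightly higher. Apcs and Saa3, whose proteins come mainly from the circulation or from an acute phase response, were at or near 0 in both groups. Of the 10 genes, 8 reached the minimum mean. Of these, 1 was lower and 0 were higher past the fold, which is 12.5%, while 16.7% of all 15620 genes with that mean were past it (8.44% lower and 8.22% higher). The share of members past the fold was thus no higher than the background. With a fold over 2 in its place, 0 members were past it, beside 7.92% of all genes (3.94% lower). The median log2 ratio of the 8 genes was -0.09, with 6 below 0 and 2 above, beside 0.00 over all genes.

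**Figure D1:**
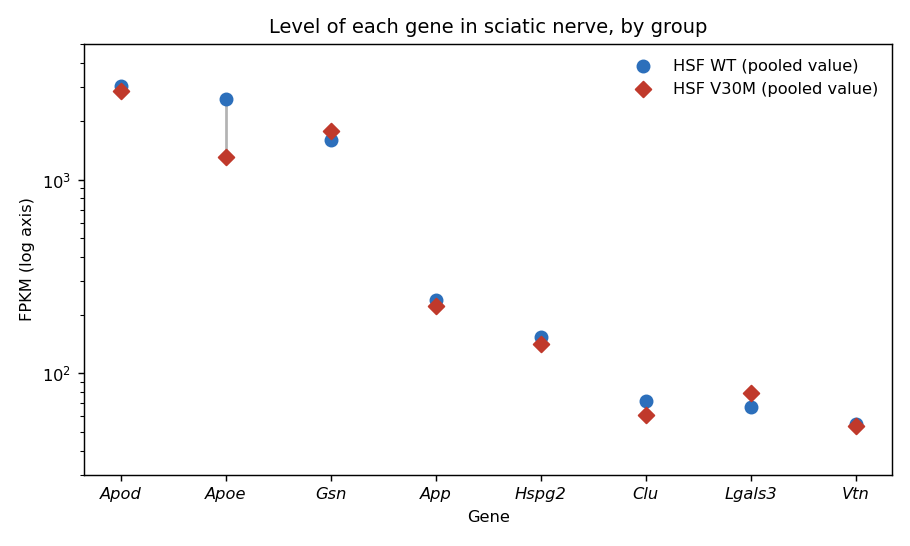
FPKM (log axis) of the 8 genes with a mean of at least 1, ordered by HSF WT level, with circles for HSF WT and diamonds for HSF V30M, each the single pooled value of its group. Symbols nearly coincide for 7 genes, and Apoe is the exception, at 1309 in HSF V30M nerve against 2599 in HSF WT nerve.

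Apoe and Apod were among the most abundant transcripts of the nerve. Apoe (ENSMUSG00000002985), on the minus strand of chromosome 7 of GRCm38 from 19696109 to 19699188, encodes the lipid carrier that is found in amyloid of every type. Its FPKM was 1309 in HSF V30M nerve against 2599 in HSF WT nerve, a difference of -1291. Among protein-coding genes this placed Apoe at rank 15 in HSF V30M and at rank 7 in HSF WT. The log2 ratio was -0.99, a linear ratio of 0.503 with a 95% counting interval of 0.489 to 0.518. These values stand for about 7606 to 40126 fragments in HSF V30M and 10911 to 65284 in HSF WT, depending on which annotated transcript is assumed. Counting error was therefore far smaller than the difference, and the spread between mice is not known.

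Apod (ENSMUSG00000022548), on the minus strand of chromosome 16 from 31296192 to 31314808, encodes apolipoprotein D, a small lipocalin that carries lipid and that fibroblasts and Schwann cells of nerve make. Its FPKM was 2878 in HSF V30M nerve against 3018 in HSF WT nerve, rank 5 among protein-coding genes in both groups. The log2 ratio was -0.07, with a counting interval of -0.09 to -0.05. The FPKM of Apod was 2.20 times that of Apoe in HSF V30M and 1.16 times in HSF WT, so that the 2 apolipoproteins stood near each other in the controls and apart in the model.

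Clu (ENSMUSG00000022037), on the plus strand of chromosome 14 from 65968483 to 65981547, encodes clusterin, the best known extracellular chaperone. It had an FPKM of 61.1 in HSF V30M nerve against 72.3 in HSF WT nerve, or about 2103 to 2498 fragments against 1797 to 2420. The log2 ratio was -0.24, with a counting interval of -0.33 to -0.15, so the value in HSF V30M was lower by more than counting error and by less than the fold. Clu was the second lowest of the 8 ratios.

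Vtn (ENSMUSG00000017344), on the plus strand of chromosome 11 from 78499091 to 78502324, encodes vitronectin, a plasma and matrix protein that binds integrins and joins amyloid deposits. Its FPKM was 53.3 in HSF V30M nerve against 54.6 in HSF WT nerve. The log2 ratio of -0.03 had a counting interval of -0.14 to 0.07, which spans 0. A difference in Vtn was not detectable at this depth.

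Hspg2 (ENSMUSG00000028763), on the plus strand of chromosome 4 from 137468769 to 137570630, encodes perlecan, the large heparan sulfate proteoglycan of basement membranes. Its longest transcript has 97 exons and 14187 bases. The FPKM was 142 in HSF V30M nerve against 155 in HSF WT nerve, with a log2 ratio of -0.13 and a counting interval of -0.15 to -0.11. The microRNA gene Mir7018 lies inside it and is listed at 0 in both groups.

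App and Gsn encode proteins with a fibril-forming stretch, and Saa3 encodes a form of serum amyloid A. App (ENSMUSG00000022892), on the minus strand of chromosome 16 from 84949685 to 85173766, encodes the membrane protein from which amyloid beta is cut. It had 222 in HSF V30M nerve against 238 in HSF WT nerve, a log2 ratio of -0.10 with a counting interval of -0.14 to -0.07. A small nucleolar RNA gene that lies within App, Gm27295, had 9.81 and 10.3.

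Gsn (ENSMUSG00000026879), on the plus strand of chromosome 2 from 35256380 to 35307892, encodes gelsolin, which severs actin filaments inside cells and, in a secreted form, in plasma. Its FPKM was 1786 in HSF V30M nerve against 1606 in HSF WT nerve, rank 10 and rank 12 among protein-coding genes. The log2 ratio of 0.15 had a counting interval of 0.14 to 0.17. The table gives Gsn as a whole and does not tell its secreted from its cytoplasmic transcripts. An overlapping unclassified transcript, Gm43128, had 2.02 and 1.30.

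Saa3 (ENSMUSG00000040026), on the minus strand of chromosome 7 from 46711998 to 46715700, encodes the serum amyloid A form that tissues make locally in inflammation. It is listed at 0 in HSF V30M, where 3 fragments on its shorter coding transcript of 555 bases would have given 0.395. It is listed at 0.441 in HSF WT, about 2 to 18 fragments, with 3 fragments worth up to 0.548. The control value is under the worth of 3 fragments on the shorter transcript and above it on the longer one of 2200 bases, and which was sequenced is not known, so no ratio was formed.

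Apcs (ENSMUSG00000026542), on the minus strand of chromosome 1 from 172893961 to 172895041, encodes serum amyloid P component, a liver-made pentraxin present in all amyloid. It is listed at 0 in both groups. On its single transcript of 971 bases, 3 fragments would have given 0.182 in HSF V30M nerve against 0.252 in HSF WT nerve. These values were taken as the limit for a count of 0.

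Lgals3 (ENSMUSG00000050335), on the plus strand of chromosome 14 from 47367751 to 47386160, encodes galectin-3, a sugar-binding protein of macrophages and Schwann cells that also marks phagocytes taking up lipid. It had 79.3 in HSF V30M nerve against 67.0 in HSF WT nerve, the highest of the 8 ratios, with a log2 value of 0.24 and a counting interval of 0.12 to 0.37. Which cells account for the value of Lgals3 was not tested.

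**Figure D2:**
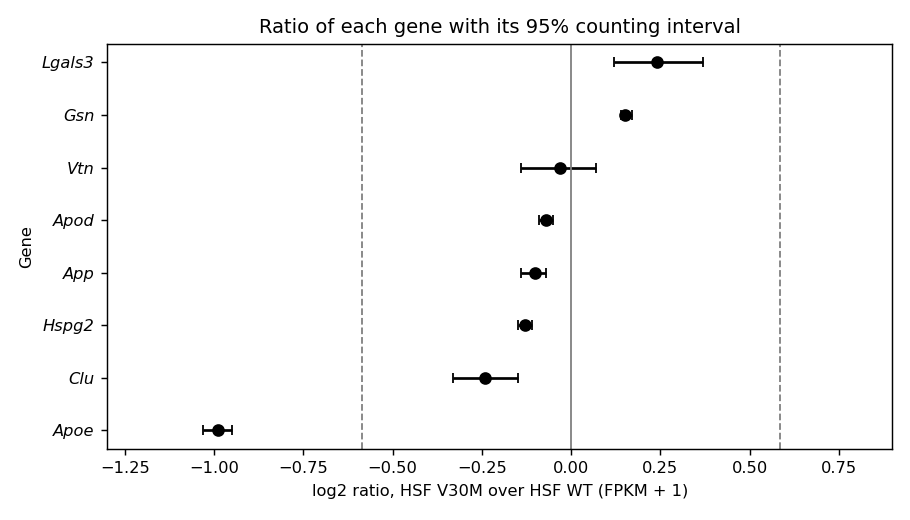
HSF V30M to HSF WT log2 ratio for the same 8 genes on the log2(FPKM + 1) scale, with bars for the 95% counting interval of the FPKM ratio and dashed lines at 1.5-fold. Apoe, at -0.99, is the only point outside the dashed lines, and the interval of Vtn alone spans 0.

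The members were also set against genes of like abundance. Of 1247 protein-coding genes whose mean FPKM was 50 or more, 8.50% were past the fold, 4.49% lower and 4.01% higher. Apoe had a lower ratio than all but 16 of them. The other members lay inside the range of that set, with 22.6% of its genes below Clu, 34.3% below Hspg2, 36.8% below App, 41.0% below Apod, 45.7% below Vtn, 69.5% below Gsn and 78.1% below Lgals3. Among the 24 protein-coding genes with a mean of at least 1000, 20.8% were past the fold, all of them lower. These were Apoe and 4 others, mt-Cytb, Lars2, Crip1 and mt-Nd1, of which mt-Cytb was lower than Apoe, at 632 in HSF V30M nerve against 1424 in HSF WT nerve. These comparison sets were chosen after the values were seen.

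**Figure D3:**
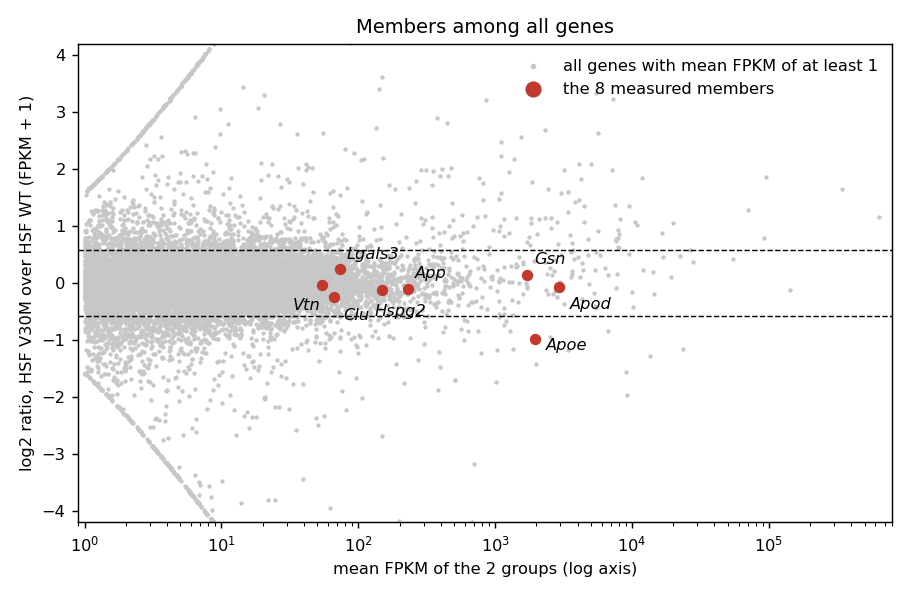
HSF V30M to HSF WT log2 ratio on the log2(FPKM + 1) scale against mean FPKM (log axis) for genes above the minimum mean in grey, with the 8 members in red and dashed lines at 1.5-fold. The 7 other members sit inside the dashed band and Apoe below it, and 166 genes beyond a log2 ratio of 4.2 are not shown.

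As a share of all protein-coding FPKM, the 10 genes held 1.82% in HSF V30M and 2.15% in HSF WT. Apoe made up 0.366% and 0.715%, Apod 0.804% and 0.830%, and Gsn 0.499% and 0.442%. Without Apoe the summed FPKM of the members was 5220 in HSF V30M nerve against 5211 in HSF WT nerve. The difference in the sum therefore came from Apoe.

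Apoe lies in a cluster of apolipoprotein genes on chromosome 7, and of its neighbours within 50 kb 1, Apoc4, was lower past the fold. Apoc1, the nearest apolipoprotein, a small protein of lipoprotein particles, had 11.2 in HSF V30M nerve against 13.3 in HSF WT nerve, a log2 ratio of -0.22. Tomm40, a mitochondrial import pore gene on the other side, had 10.4 and 10.7, Nectin2 had 10.6 and 10.8, and Clptm1 had 58.7 and 47.9. Apoc4 was at 0.140 and 2.38, and Apoc2 was at 1.88 in the model and at 0 in the control. Apoc4 and Apoc2 share 1 locus in the table together with Gm44805, which overlaps them, so the split of fragments between them is uncertain. Tomm40 and Nectin2 also share 1 locus, with Gm20512, which overlaps both on the other strand, so the same limit applies to their values.

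Partner genes of the members were taken from 10 lists of 136 genes, of which 135 are in the table and 103 had a mean FPKM of at least 1. Past the fold were 10 higher and 7 lower, which is 16.5% beside 16.7% of all genes (8.22% higher and 8.44% lower). The single lists are small, and their counts are to be read beside these shares. The 10 higher include Ttr, a gene that the genotypes themselves alter. The median log2 ratio of the 103 was 0.03.

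Of 17 receptors, lipid loading enzymes and companions of apolipoprotein E, 14 were measured, 0 were higher and 1, Apoc4, was lower past the fold, with a median log2 ratio of -0.13. Lpl, which frees fatty acids from lipoproteins, had the highest mean, with 142 in HSF V30M nerve against 165 in HSF WT nerve. Pltp, which moves phospholipid between particles, had 123 and 99.1. Lrp1, a clearance receptor for apolipoprotein E and amyloid beta, had 115 and 118, and Abca1, which loads it with cholesterol, had 29.4 and 34.6. The ratio of Apoe was thus not shared by its main receptor or by its lipid loader.

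The other extracellular chaperones were measured for 13 of 20 genes, with 4 lower and 0 higher past the fold and a median of -0.12. Over all genes, 8.44% were lower and 8.22% higher past the fold, and the list was not tested. Hp, haptoglobin, which binds haemoglobin and unfolded proteins, had 54.0 in HSF V30M nerve against 96.5 in HSF WT nerve, a log2 ratio of -0.82. Serpina3n, a protease inhibitor of the acute phase, had 49.7 and 97.2, and Cst3, cystatin C, a cysteine protease inhibitor with an amyloid form of its own, had 479 and 762. Serpina1b had 7.13 and 25.0, but belongs to a family of near-identical copies, so its value is uncertain. Sparc, a matrix protein with the highest mean of the list, had 1596 and 1263, and A2m, another protease-trapping chaperone, had 10.6 and 8.87. The chaperone Hspa5 of the endoplasmic reticulum had 98.5 and 144, within the fold.

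Among other fibril precursors, 10 of 20 were measured, 2 were higher and 0 lower past the fold, with a median of 0.08. Ttr was one of the higher ones. B2m, the light chain of major histocompatibility class I, had 324 and 415, and Lyz2, lysozyme of macrophages, had 194 and 266. Lyz2 has a near-identical copy, Lyz1, at 8.37 and 7.82, so their split is uncertain. Saa1, Saa2 and Saa4 were at or under 0.158 in both groups.

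Acute phase partners and receptors of serum amyloid A gave 7 measured of 10, with 1 higher and 2 lower and a median of 0.02. Cd36, a scavenger receptor for lipid and amyloid in macrophages and fat, had 61.0 in HSF V30M nerve against 130 in HSF WT nerve. Orm1, an acute phase protein, had 13.9 and 37.0. The summed adipocyte markers were also lower, at 2318 and 3200, as were the summed macrophage markers, at 229 and 374. In the other direction, Lcn2, a siderophore-binding protein of neutrophil granules, had 8.20 and 3.42. Scarb1, a lipoprotein receptor, was at 20.8 and 18.4. Of 5 pentraxins related to Apcs, 2 were measured, of which Nptxr, a neuronal pentraxin receptor, was higher at 7.57 and 3.65 and Ptx3 was at 1.68 and 1.64.

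All 17 genes of the App family and its processing were measured, 3 higher and 0 lower past the fold, with a median of 0.03. Ece1, which cleaves endothelin and degrades amyloid beta, had 82.7 in HSF V30M nerve against 42.2 in HSF WT nerve, a log2 ratio of 0.95. Its relative Ece2 had 5.28 and 2.92, and Aplp1, a paralog of App, had 1.55 and 0.599. Aplp2, the paralog with the highest mean, had 203 and 199, and the alpha-secretase Adam10 had 107 and 82.1.

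Of the basement membrane and cell surface genes beside Hspg2, 16 of 17 were measured, with 1 higher, 0 lower and a median of 0.07. The higher one was Sdc3, a syndecan of axons and Schwann cells, at 89.4 in HSF V30M nerve against 51.8 in HSF WT nerve. Gpc3, a glypican, and Col4a1, a chain of type IV collagen, had the highest means, with 231 and 225, and with 231 and 168. Agrn, another basement membrane heparan sulfate proteoglycan, had 35.5 and 30.7. The perlecan transcript thus sat among genes whose ratios ran from -0.45 to 0.78.

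Among vitronectin receptors and genes of plasminogen activation, 10 of 11 were measured, with 1 higher, 0 lower and a median of 0.00. Spp1, which encodes osteopontin, a secreted integrin ligand made by macrophages and Schwann cells after nerve damage, had 496 in HSF V30M nerve against 125 in HSF WT nerve. This was 3.98-fold higher, a log2 ratio of 1.98. Itgav, the alpha chain of the vitronectin receptor, had 93.5 and 84.0. Of the beta chains that pair with it, Itgb5 had 63.7 and 47.6 and Itgb3 had 4.07 and 5.25, each within the fold. The transcripts of Vtn and Itgav differed little while that of another integrin ligand, Spp1, was much higher.

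Of the gelsolin family and its cleaving enzymes, 7 of 10 were measured, 1 higher and 0 lower, with a median of 0.13. The higher one, Scin, a gelsolin relative, had 2.75 in HSF V30M nerve against 1.48 in HSF WT nerve. Capg, which caps actin filaments in macrophages, had 194 and 148, and Flii, another relative, had 45.01 and 40.9. The proteases Furin and Mmp14, which cut mutant gelsolin, had 23.1 and 28.1, and 33.8 and 36.7. Of 9 galectins beside Lgals3, 8 are in the table and 7 were measured, with 0 past the fold and a median of 0.19. Lgals1, the most abundant galectin of nerve, had 444 and 432, and Lgals8 had 35.2 and 38.8.

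**Figure D4:**
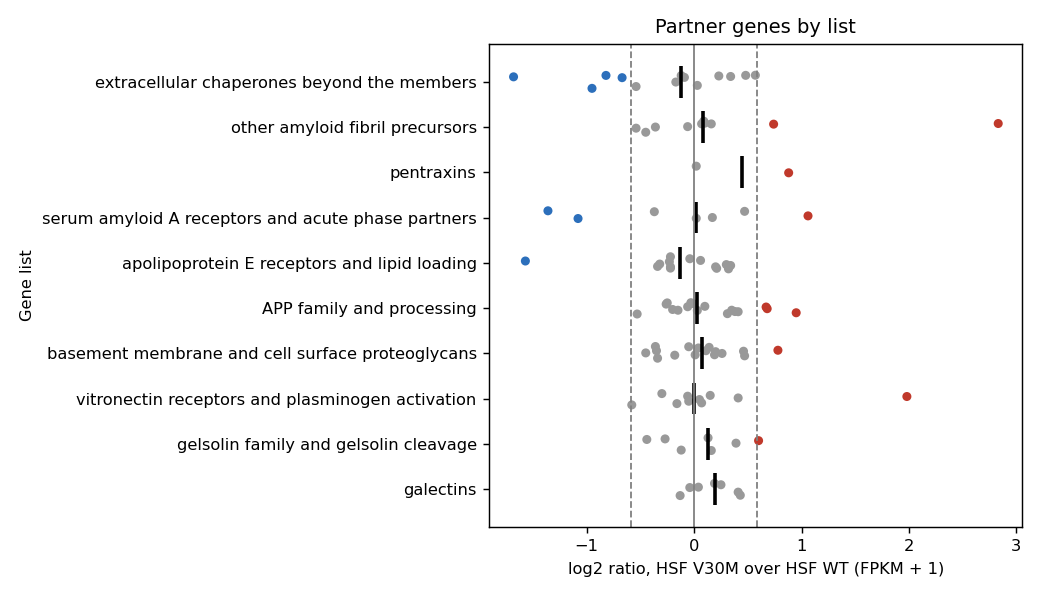
HSF V30M to HSF WT log2 ratio on the log2(FPKM + 1) scale for partner genes above the minimum mean, by list, with black bars at the median, dashed lines at 1.5-fold, and red and blue for genes higher and lower past it. Medians lie between -0.13 and 0.45, and Ttr (2.83) and Spp1 (1.98) are the points farthest to the right.

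Markers of several cell types differed between the groups and are given beside the values they may touch. Over all genes above the minimum mean, 8.44% were lower and 8.22% higher past the fold. Of 10 macrophage markers, 8 were lower and 4 of them past the fold, C1qb, Trem2, Cd68 and Aif1, and their summed FPKM was 229 in HSF V30M nerve against 374 in HSF WT nerve. C1qb had 58.7 and 139, and Trem2, a lipid-sensing receptor that binds apolipoprotein E, had 8.95 and 18.5. All 6 adipocyte markers were lower, 3 past the fold, with a sum of 2318 and 3200. Lep, leptin, had 7.47 and 33.4, and Adipoq, adiponectin, had 319 and 543. Macrophages and fat are among the cells that make Apoe. The part of these or other cell types in its ratio, or in those of Cd36, Orm1 and Hp, was not tested.

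Of 9 myelinating Schwann cell markers, 1 was higher and 0 lower past the fold, with a median log2 ratio of 0.30, and of 6 non-myelinating markers 1 was higher and 1 lower, with a median of -0.07. Of 8 fibroblast markers, 2 were lower past the fold, with Dcn at 1331 in HSF V30M nerve against 1320 in HSF WT nerve and a median of -0.30. Endothelium had 2 of 6 higher past the fold, and perineurium 0 of 5. All 6 skeletal muscle markers were lower past the fold, with a sum of 41.8 and 160. Of 7 measured neutrophil markers 6 were higher past the fold and 1, Csf3r, was lower, at 2.63 and 6.05. Of 6 erythrocyte markers 5 were higher past the fold, with a sum of 291 and 101. The part of the blood markers in the value of Lcn2 was not tested. Of the lymphocyte markers, 5 of 5 measured B cell genes and 4 of 4 measured T cell genes were lower past the fold.

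The liver makes most of the body's vitronectin and serum amyloid P component. Of 8 liver markers, 2 had a mean of at least 1, and the summed FPKM of all 8 was 4.87 in HSF V30M nerve against 6.88 in HSF WT nerve. The part of liver RNA in the value of Vtn was not tested. Alb, albumin, had 1.76 and 3.82. Apoa1 and Fgb of the liver list are also among the partner genes.

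**Figure D5:**
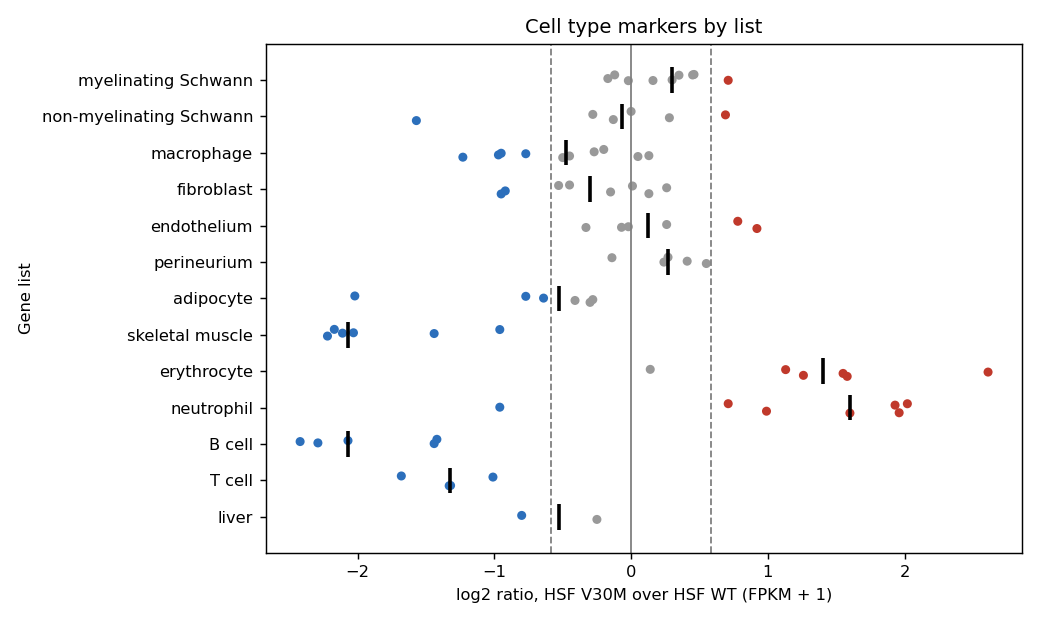
HSF V30M to HSF WT log2 ratio on the log2(FPKM + 1) scale for cell type markers above the minimum mean, by list, with symbols as for the partner genes. Macrophage (-0.48) and adipocyte (-0.52) medians lie left of 0, myelinating Schwann cell markers have a median of 0.30, and muscle, lymphocyte, erythrocyte and neutrophil lists lie farther out.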

How the data were processed

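Sciatic nerve RNA was sequenced on Ion Torrent from 4 mice, 2 of each group. Per the labels, the submitters' processing notes name STAR, Cufflinks, Cuffdiff and GRCm38. The methods give the reference as Ensembl's, of strain C57BL/6J, and tool versions and the annotation release are not given in the sources used here. The authors deposited 1 table with an FPKM value per gene and group. Its columns of fold change, test statistic, p-value and q-value hold the authors' own comparison and were not used. Columns were read by number, since the header line is shifted, and decimal commas were replaced by points. The 23 genes that Cuffdiff marked as holding too many alignments were excluded. As the table holds 1 value per group, the planned fit on values per mouse was not made.

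Members and lists were chosen with earlier results of these data known. Named are all members, Ttr and Hsf1, the genes of each list past the fold and the 2 of highest mean, genes overlapping a member, and top markers. A few genes that this rule takes in are not reported here. The neighbours of Apoe and the further genes of the lists with a known link to a member were chosen after their values were seen. The fold was 1.5 on FPKM with a pseudocount of 1 and a minimum mean of 1. Positions are from GENCODE M21 (GRCm38), which holds 50369 of the gene identifiers and lacks 224, and promoter windows are from RefSeq (GRCm38.p6).

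The FPKM worth of 1 fragment was estimated from low values of genes that have 1 transcript and overlap no other gene. After multiplying FPKM by transcript kilobases less 200 bases, the lowest HSF WT values clustered at 0.0481 and 0.0648, and those of HSF V30M at 0.0394 and 0.0468. Each cluster was taken as 1 fragment in 1 library of its group. Of 570 such low values in HSF WT, 98.1% lay within 2% of these. Of 411 in HSF V30M, which are rounded to 2 decimals, 44.0% lay within 2% and 87.1% within 5%, a weak check. Fragment numbers of HSF V30M, and the counting intervals, rest on these clusters. Fragment numbers run from the shortest coding transcript of the basic GENCODE set with the larger worth to the longest with the smaller, and a limit at 0 is 3 fragments on the shortest. The 95% interval of a ratio is an exact Clopper-Pearson interval on the lower fragment numbers and covers counting error only. Alternatives were a pseudocount of 0.1 or none, median-of-ratios scaling, other minimum means, a fold over 2 and, added after seeing the data, scaling to the summed FPKM of protein-coding genes. Scripts ran in Python 3.11.15 with scipy 1.17.1, numpy 2.4.6 and pandas 2.3.3, and plots were drawn with matplotlib 3.10.9. The calls and the worth of 1 fragment were tested on simulated data, the worth only with clusters like those of HSF WT. The closer clusters and the rounding of HSF V30M were not simulated.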

Additional observations from a re-analysis of the deposited data

How the results depend on the processing

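No paired analysis was possible because mice were pooled into 1 value for each group. Leaving out single mice and fitting a replicate block were likewise not run. The count of 1 member past the fold, Apoe, became 0 with a fold over 2, where 7.92% of all genes were past it, since its ratio of 0.503 falls just short. It was 1 under the other 6 settings run. Of the partner genes, 17 were past the fold, 7 with a fold over 2, and 12 to 21 under the other settings. Of 32 comparisons of single member ratios, 29 stayed within the counting interval, 3 moved beyond it (Apod, Hspg2 and Gsn with scaling to the summed FPKM of protein-coding genes), and the sign of none of the 8 ratios turned. The largest shift was 0.03 on the log2 scale. Among the members, depth limits Saa3, Apcs and the small ratio of Vtn. The spread between mice, which no setting reaches, limits all 10 genes.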
